A study of Sus scrofa with 22 samples.

Results

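The genes described here are 30 genes that make cholesterol from acetyl-CoA, control that synthesis through the transcription factor SREBP2, or move and store cholesterol inside cells. They were chosen by name from textbook knowledge of the pathway, with earlier results of these data known. A gene entered when the pig Ensembl identifier of a row in the deposited count files matched its symbol. Of the 30, 28 had a row among the 31907 gene identifiers in the files, and 27 passed the filter on low counts that left 14994 genes for testing. By role, 5 belong to the mevalonate steps, 3 to the isoprenoid steps, 3 to squalene formation and ring closure, 8 to the conversion of lanosterol to cholesterol, 6 to SREBP2 control and 5 to traffic and storage.

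SREBP2 is held in the endoplasmic reticulum by SCAP and an INSIG protein when sterols are plentiful. When sterols fall, SCAP escorts it to the Golgi, where a pair of proteases release the fragment that turns on nearly every gene of the synthesis pathway. The brain makes its own cholesterol because lipoproteins of the blood do not cross the blood-brain barrier, and in a young animal much of it goes into myelin, the membrane that oligodendrocytes wrap around axons.

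The tissue was the cerebellum, a part of the hindbrain with roles in posture and gait, of piglets (Sus scrofa). The 11 BDL animals (7 female, 4 male) had their bile duct ligated at day 8 of life, which stops bile from leaving the liver. The 11 SHAM animals (5 female, 6 male) had surgery without ligation at the same age. Both groups were followed for 3 weeks, and neither carried a genetic change named in the labels. No source used here gives strain or litter. The tests treated the animals as independent, and any litters they share could not be taken into account.

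Libraries held between 14811464 and 20046909 gene counts. Markers of the tissue were present in every library. The 10 listed granule neuron markers summed to between 5586 and 6740 CPM, a library's counts scaled to a common total, in BDL and between 5460 and 7166 CPM in SHAM animals, and the 8 Purkinje cell markers to between 2606 and 4100 CPM in BDL and between 2696 and 3689 CPM in SHAM. Of 15 listed oligodendrocyte and myelin markers 13 were measured (not MOBP or MAL), and they summed to a lowest, median and highest value of 5259, 17448 and 29343 CPM in BDL and 7493, 15085 and 25731 CPM in SHAM. All 13 had log2 fold changes above 0 (median 0.18), and 0 passed the test between BDL and SHAM. A mean of the 13 standardized markers gave each animal a myelin score. BDL replicate 2 (score -2.57) and SHAM replicate 1 (score -1.56) stood lowest on it, and they held the lowest value of 5 and of 13 of the 27 tested genes. These animals also had the largest shares of reads assigned to no gene, 34.6% in BDL replicate 2 and 33.5% in SHAM replicate 1. SHAM replicate 1 was also the smallest library. BDL replicate 5, with the highest score (1.43), held the highest value of 11 genes.

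The other 3 genes gave no level. PMVK, phosphomevalonate kinase, and MBTPS2, the second of the proteases that cut SREBP2, were not matched to a row and were not analysed here. LSS, lanosterol synthase, was listed at 0 counts in all 22 libraries. RefSeq places LSS on an unplaced scaffold of the Sscrofa11.1 genome build, and the 0 is not read as absence of its RNA. CPM values are not corrected for transcript length, so levels are compared between animals and never between genes.

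The comparison of BDL with SHAM asks whether blocked bile flow was accompanied by a changed level of any step of the pathway in the cerebellum. No gene of the pathway passed the test. The highest fitted difference was 0.19 ± 0.09 (log2 fold change ± SE) for the sterol reductase gene TM7SF2, and the lowest was -0.10 ± 0.10 for GGPS1, which makes geranylgeranyl diphosphate. Of the 27 genes 21 had a value above 0, against 50.3% of all genes tested, and the median was 0.06, against 0.0006 over all genes.

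edgeR's quasi-likelihood test with Benjamini-Hochberg adjustment over 14994 genes called 0 of the 27, on a background of 0% of all genes called, and the smallest adjusted p among them was 0.881. At an unadjusted p under 0.05 stood 2 of the 27, EBP and TM7SF2, where 4.96% of all genes did. limma-voom and DESeq2 also called 0, each with 2 at an unadjusted p under 0.05. The BDL and SHAM ranges overlapped for 27 of 27 genes, where 0% of all genes had ranges that did not overlap. For 19 of the 27 genes (70.4%, against 63.6% of all genes) the 95% interval excluded a change of 1.25-fold or more either way, and for all 27 (against 87.1% of all genes) it excluded 1.5-fold. The 8 genes whose intervals reached past 1.25-fold were HMGCS1, IDI1, FDPS, TM7SF2, MSMO1, NSDHL, DHCR7 and NPC1. The count above 0 rested partly on single animals: without BDL replicate 5 it was 15 of 27 and the median 0.0089. The median was 0.0325 without SHAM replicate 4, 0.0342 without BDL replicate 1 and 0.0886 without BDL replicate 2. With the myelin score added to the fit, 15 of 27 lay above 0 and the median was 0.0021. In bulk tissue, fewer cells of a type and less RNA per cell cannot be told apart, and this holds for every value given here.

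**Figure D1:**
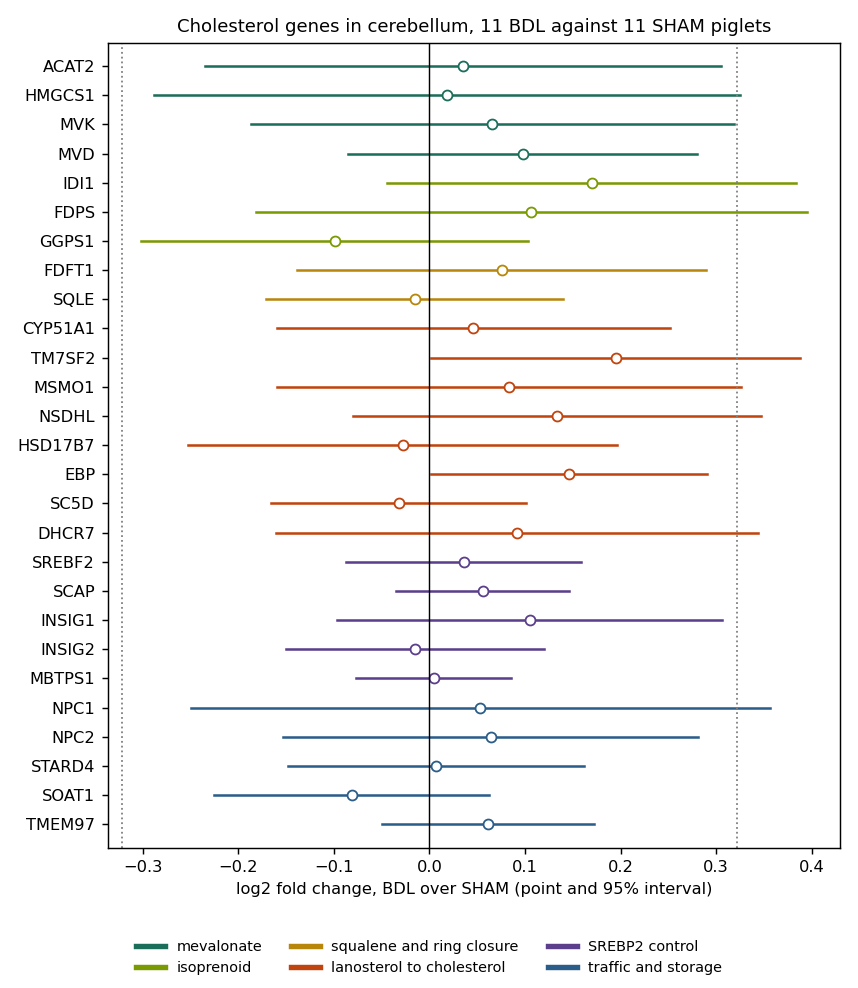
Log2 fold change of BDL over SHAM (horizontal axis) for the 27 tested genes, ordered by role, with 95% intervals as bars and dotted lines at 1.25-fold. Of the 27 points 21 lie right of 0, and the intervals of EBP and TM7SF2 alone exclude 0 before adjustment.

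In the mevalonate steps 0 of 4 tested genes passed, and all 4 had values above 0. HMGCS1, HMG-CoA synthase (chr16:27936225-27957261 on Sscrofa11.1), had a lowest, median and highest level of 344, 668 and 1048 CPM in BDL animals and 502, 652 and 883 CPM in SHAM animals. The SHAM animals all lay within the span of the BDL animals. The means were 692 ± 201 CPM in BDL and 684 ± 120 CPM in SHAM (SD, n = 11 each), and the log2 fold change was 0.02 ± 0.15 SE (95% interval -0.29 to 0.33). ACAT2, the cytosolic thiolase that joins acetyl-CoA units, averaged 62.0 ± 14.8 CPM in BDL and 60.4 ± 12.1 CPM in SHAM. MVK, mevalonate kinase, averaged 24.1 ± 5.16 CPM in BDL and 22.9 ± 4.67 CPM in SHAM. MVD, which decarboxylates mevalonate diphosphate to the first isoprene unit, averaged 111 ± 13.8 CPM in BDL and 104 ± 18.1 CPM in SHAM, and 9 of 11 BDL animals lay above the SHAM mean. All these differences were within the spread between animals: the log2 fold changes were 0.03 ± 0.13 SE for ACAT2, 0.07 ± 0.12 SE for MVK and 0.10 ± 0.09 SE for MVD.

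In the isoprenoid steps 0 of 3 genes passed. IDI1, isopentenyl diphosphate isomerase, had a lowest, median and highest level of 120.4, 152 and 199 CPM in BDL and 88.0, 152 and 170.1 CPM in SHAM. The medians lay together, and the ranges overlapped with BDL reaching higher and SHAM lower. The log2 fold change of IDI1 was 0.17 ± 0.10 SE (95% interval -0.04 to 0.38, unadjusted p = 0.114, adjusted p = 0.881), and 9 of 11 BDL animals lay above the SHAM mean. FDPS, farnesyl diphosphate synthase, had between 37 and 92 counts per library and averaged 3.58 ± 0.78 CPM in BDL and 3.26 ± 0.75 CPM in SHAM (0.11 ± 0.14 SE). GGPS1 averaged 8.64 ± 1.78 CPM in BDL and 9.49 ± 1.16 CPM in SHAM, and 4 of 11 BDL animals lay above the SHAM mean.

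In squalene formation and ring closure 0 of 2 tested genes passed. FDFT1, squalene synthase, which commits farnesyl diphosphate to sterols, had a lowest, median and highest level of 95.2, 128 and 156 CPM in BDL and 83.0, 116 and 153 CPM in SHAM. The log2 fold change was 0.08 ± 0.10 SE. SQLE, squalene epoxidase (chr4:14669789-14700152), a rate-limiting enzyme of the later pathway, had 80.0, 95.3 and 124 CPM in BDL and 85.8, 106 and 114 CPM in SHAM. The SHAM animals again lay inside the BDL span, and the log2 fold change of SQLE was -0.02 ± 0.08 SE with 4 of 11 BDL animals above the SHAM mean.

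In the conversion of lanosterol to cholesterol 0 of 8 genes passed, with 6 of 8 above 0 and a median log2 fold change of 0.09. CYP51A1, the lanosterol demethylase (chr9:72057506-72079587), had a lowest, median and highest level of 140.4, 203 and 271 CPM in BDL and 138, 192 and 234 CPM in SHAM (log2 fold change 0.05 ± 0.10 SE). The ranges of CYP51A1 nearly coincided. TM7SF2, a sterol reductase that acts on the product of CYP51A1 (chr2:7076778-7081502), had 15.9, 20.5 and 30.8 CPM in BDL and 14.4, 19.1 and 22 CPM in SHAM. The lowest animals of the groups were close and the BDL group reached higher, with 10 of 11 BDL animals above the SHAM mean. The log2 fold change of TM7SF2 was 0.19 ± 0.09 SE (unadjusted p = 0.0480, adjusted p = 0.881). EBP, the sterol isomerase (chrX:42670592-42678571), had 27.2, 31.8 and 34.8 CPM in BDL and 22.4, 27.3 and 35.35 CPM in SHAM. The BDL animals of EBP lay close together, inside the SHAM range, and 10 of 11 were above the SHAM mean. The log2 fold change of EBP was 0.15 ± 0.07 SE (unadjusted p = 0.0478, adjusted p = 0.881). The count of 2 genes at an unadjusted p under 0.05, which are EBP and TM7SF2, fell to 1 when body weight was added to the fit. It was 0 when the myelin score was added, with TM7SF2 at 0.188 and EBP at 0.125, and 0 when BDL replicate 2 and SHAM replicate 1 were both left out, with TM7SF2 at 0.167 and EBP at 0.118. With 1 animal left out, TM7SF2 ran from 0.146 to 0.234 and EBP from 0.12 to 0.176.

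NSDHL, which removes methyl groups from the sterol ring together with MSMO1, had a lowest, median and highest level of 37.8, 47.9 and 60.6 CPM in BDL and 29.6, 44.5 and 59.3 CPM in SHAM (log2 fold change 0.13 ± 0.10 SE, unadjusted p = 0.211). DHCR7, which reduces the last double bond to give cholesterol in one branch of the pathway, had 27.9, 38.8 and 53.1 CPM in BDL and 25.1, 37.9 and 51.1 CPM in SHAM (0.09 ± 0.12 SE). In both genes the BDL values sat slightly above the SHAM values at the lowest, median and highest animal, by less than the spread. MSMO1, the methylsterol monooxygenase, averaged 214 ± 47.6 CPM in BDL and 203 ± 34.7 CPM in SHAM (0.08 ± 0.12 SE). HSD17B7, a ketosteroid reductase of the same methyl removal, averaged 20.1 ± 3.37 CPM in BDL and 20.4 ± 4.08 CPM in SHAM (-0.03 ± 0.11 SE). SC5D, lathosterol oxidase, averaged 105 ± 14.4 CPM in BDL and 106 ± 9.4 CPM in SHAM (-0.03 ± 0.06 SE).

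**Figure D2:**
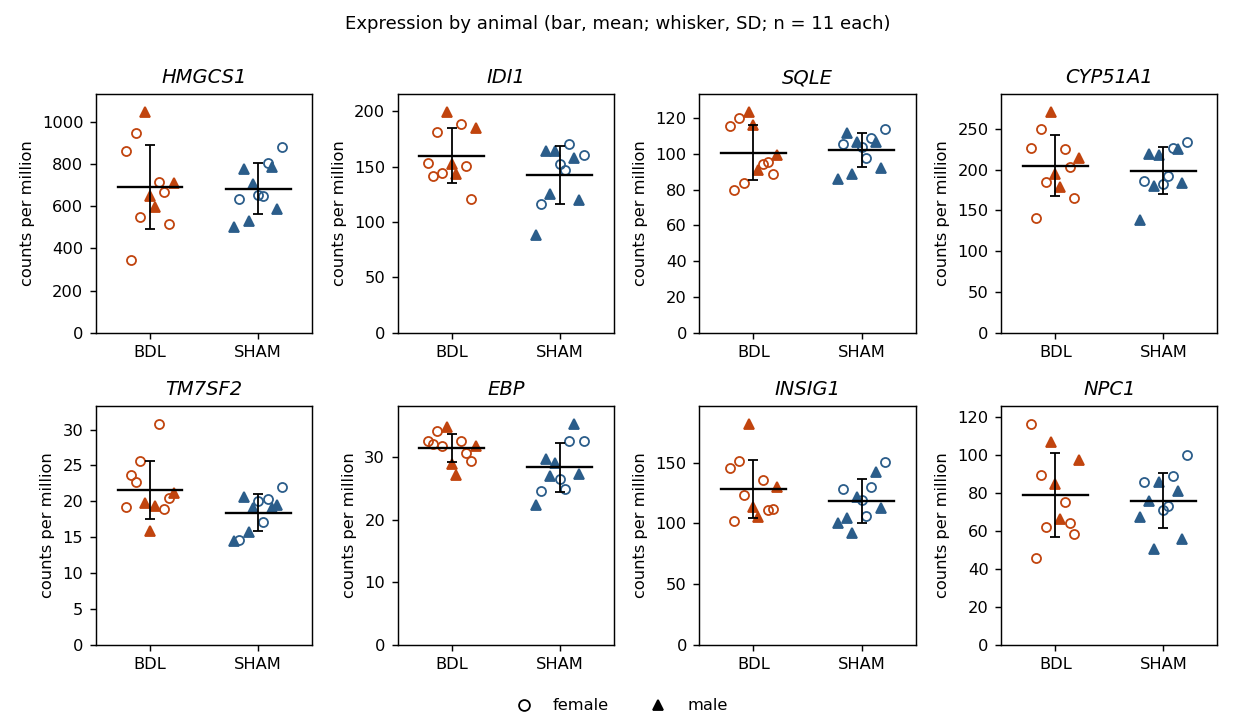
CPM (vertical axis) of 8 genes in each animal, with BDL left of SHAM, circles for females, triangles for males, a bar for the group mean and a whisker for the SD (n = 11 each). The groups overlap in every panel. HMGCS1 runs from 344 to 1048 CPM among BDL animals and from 502 to 883 CPM among SHAM animals.

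Among the genes of SREBP2 control 0 of 5 tested genes passed. SREBF2, which encodes SREBP2, had a lowest, median and highest level of 386, 440.4 and 522 CPM in BDL and 399, 440.3 and 519 CPM in SHAM. The SREBF2 medians were nearly equal, and the log2 fold change was 0.04 ± 0.06 SE (95% interval -0.09 to 0.16). SCAP, the sterol-sensing escort, had 106, 116 and 127 CPM in BDL and 99.4, 112 and 124 CPM in SHAM (0.06 ± 0.04 SE, unadjusted p = 0.217), with 8 of 11 BDL animals above the SHAM mean. INSIG1, the retention protein whose gene is itself an SREBP2 target, had 102, 124 and 182 CPM in BDL and 92.1, 119 and 151 CPM in SHAM (0.10 ± 0.10 SE). The highest INSIG1 value was that of BDL replicate 5, and the next BDL animal, replicate 3, had 152 CPM. The INSIG1 ranges overlapped over most of their length. INSIG2, its relative, averaged 19.0 ± 2.14 CPM in BDL and 19.2 ± 1.41 CPM in SHAM, and RefSeq also lists a pseudogene copy, so its reads may be shared. MBTPS1, the first of the SREBP2 proteases, averaged 108 ± 5.41 CPM in BDL and 107 ± 5.54 CPM in SHAM (0.0043 ± 0.04 SE).

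Among the genes of traffic and storage 0 of 5 passed. NPC1, the membrane protein that passes cholesterol out of late endosomes (chr6:108403126-108450486), had a lowest, median and highest level of 45.7, 75.2 and 117 CPM in BDL and 50.7, 75.9 and 100.3 CPM in SHAM (log2 fold change 0.05 ± 0.15 SE). NPC1 spread over more than a 2-fold range in BDL, and the SHAM animals lay inside it. NPC2, which hands cholesterol to NPC1 in the endosome lumen, averaged 43.0 ± 6.17 CPM in BDL and 41.2 ± 8.0 CPM in SHAM (0.06 ± 0.11 SE). STARD4, a cytosolic sterol carrier, had 21.3, 25.9 and 30.5 CPM in BDL and 20.4, 25.8 and 31.5 CPM in SHAM (0.0068 ± 0.08 SE). TMEM97, a sterol-responsive membrane protein that binds NPC1, had 45.0, 51.6 and 56.5 CPM in BDL and 39.4, 48.2 and 56.2 CPM in SHAM (0.06 ± 0.05 SE). STARD4 differed hardly at all between the groups, and for TMEM97 8 of 11 BDL animals lay above the SHAM mean. SOAT1, which esterifies cholesterol for storage, had 9.49, 11.5 and 13.2 CPM in BDL and 9.55, 11.5 and 14.4 CPM in SHAM (-0.08 ± 0.07 SE, unadjusted p = 0.255).

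Because the groups held different numbers of each sex, the treatment effect was also fitted within females and within males. Within females 8 of the 27 genes lay above 0 (median -0.02), where 50.5% of all genes did. Within males 23 of the 27 lay above 0 (median 0.12), where 47.5% of all genes did. BDL replicate 5, highest in 11 genes, and SHAM replicate 1, lowest in 13, were both males. BDL replicate 2, lowest in 5 genes, was a female. No within-sex fit without these animals is reported here. In both sexes 0 of 27 were called, on a background of 0% in each, with 1 gene at an unadjusted p under 0.05 in each, where 5.83% of all genes in females and 4.08% in males were. In females that gene was TM7SF2, at 23.1 ± 4.21 CPM in BDL (n = 7) and 18.8 ± 2.93 CPM in SHAM (n = 5), a log2 fold change of 0.29 ± 0.12 SE with an adjusted p of 0.795 from edgeR. In males it was IDI1, at 170.0 ± 26.6 CPM in BDL (n = 4) and 137 ± 30.7 CPM in SHAM (n = 6), a log2 fold change of 0.32 ± 0.15 SE with an adjusted p of 0.9999 from edgeR.

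The difference between the sexes was tested as an interaction, the female effect minus the male effect. It called 0 of 27 genes on a background of 0%, with 0 at an unadjusted p under 0.05 where 4.6% of all genes were, and limma-voom also called 0. Values below 0 were found for 23 of the 27 genes, with a median of -0.18, where 51.5% of all genes lay above 0. NPC1 had the smallest interaction p. In females NPC1 had a lowest, median and highest level of 45.7, 64.3 and 117 CPM in BDL and 71.4, 85.6 and 100.3 CPM in SHAM. In males it averaged 89.0 ± 17.7 CPM in BDL and 69.5 ± 14.0 CPM in SHAM. The interaction of NPC1 was -0.55 ± 0.27 SE (unadjusted p = 0.0561, adjusted p = 0.917 from edgeR). SQLE averaged 96.8 ± 15.5 CPM in BDL and 106 ± 6.15 CPM in SHAM females, and 108 ± 14.9 CPM in BDL and 98.6 ± 11 CPM in SHAM males (-0.26 ± 0.15 SE, unadjusted p = 0.0935).

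The myelin score moved the same way as these values. Its mean was -0.24 in BDL and 0.18 in SHAM females (two-sided exact permutation p = 0.556), and 0.79 in BDL and -0.39 in SHAM males (two-sided exact permutation p = 0.0619, 0.186 adjusted over 3 comparisons). Over all animals it was 0.13 in BDL and -0.13 in SHAM (two-sided permutation p = 0.554). With the score added to the fit, 16 of 27 genes lay above 0 in females (median 0.03, 50.4% of all genes) and 10 of 27 in males (median -0.02, 47.7% of all genes), with 0 called on a background of 0% in each. In females 2 genes then stood at an unadjusted p under 0.05 (5.2% of all genes): TM7SF2 at 0.32 ± 0.13 SE (unadjusted p = 0.0177) and EBP at 0.23 ± 0.08 SE (unadjusted p = 0.0122), both with an adjusted p of 0.845 from edgeR. The interaction then had 17 of 27 genes above 0 (51.2% of all genes) and a median of 0.05, with 0 called on a background of 0%. NPC1 then stood at -0.10 ± 0.15 SE for the interaction. These fits with the score were chosen after seeing the data.

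**Figure D3:**
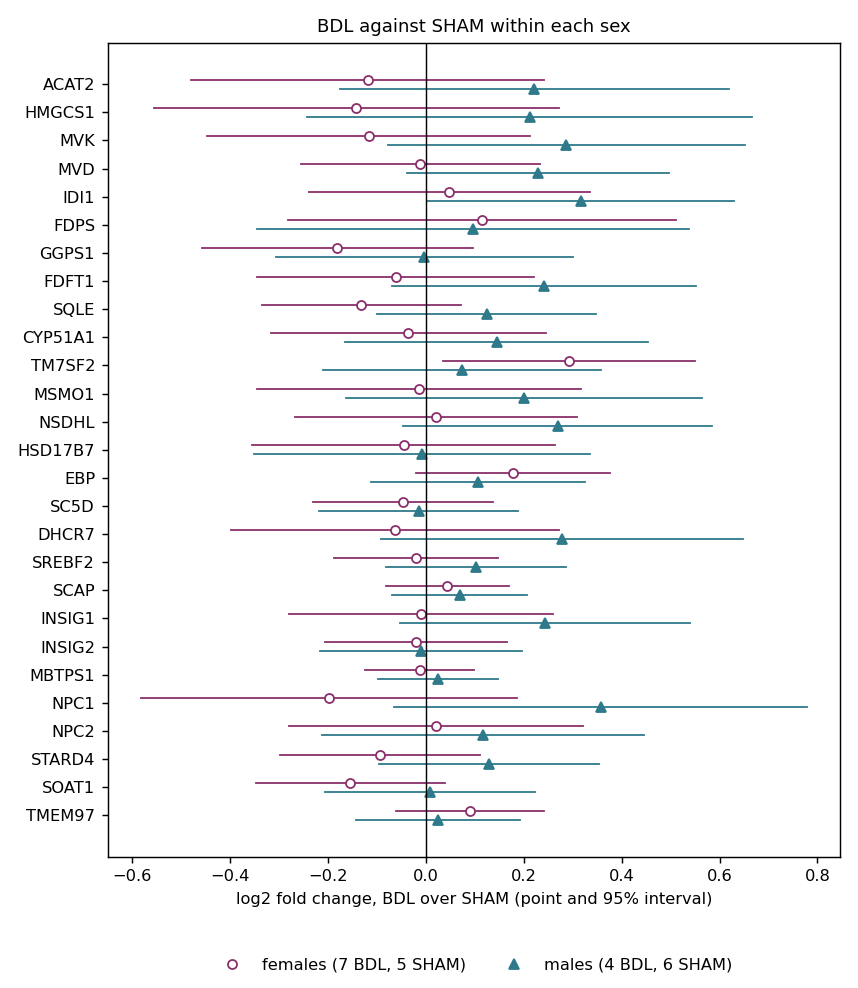
Log2 fold change of BDL over SHAM (horizontal axis) for the 27 genes in females (circles) and in males (triangles), with lines for 95% intervals. The points of males lie right of 0 for 23 genes and those of females for 8, and 0 genes pass the test in either sex or in the difference between the sexes.

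Sex itself, body weight and the animal number were looked at in the same way. What the animal number stands for is not stated in the labels. Between females and males 0 of the 27 genes were called, on a background of 0.06% of all genes. At an unadjusted p under 0.05, where 5.95% of all genes were, stood SOAT1, at 0.17 ± 0.07 SE female minus male (unadjusted p = 0.0252), and GGPS1, at -0.23 ± 0.10 SE (unadjusted p = 0.0303). Body weight had 0 of 27 called on a background of 0%, with 0 at an unadjusted p under 0.05 (7.39% of all genes). The animal number in the labels had 0 of 27 called on a background of 0.0734%, with 1 gene, NPC2, at an unadjusted p under 0.05 (0.11 ± 0.05 SE per SD), where 9.98% of all genes were. limma-voom called 0 of 27 in each of these comparisons.

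The genes varied between animals to very different degrees. Over all 22 animals the SD of log2 CPM was 0.36 for HMGCS1 and 0.35 for NPC1, and it was 0.10 for SCAP and 0.07 for MBTPS1. The highest animal stood 3.05-fold above the lowest for HMGCS1 and 1.23-fold for MBTPS1. The next comparison therefore asks which genes of the pathway varied together with the amount of myelin RNA in a sample.

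Most of the tested synthesis genes passed the test as higher in animals with more myelin marker RNA, while SREBF2 and most of its control genes did not pass. Fitted per SD of the myelin score, beside sex and treatment, HMGCS1 changed by 0.33 ± 0.03 (log2 ± SE, adjusted p = 1.26e-07 from edgeR) and NPC1 by 0.32 ± 0.03 (adjusted p = 2.66e-07). edgeR called 13 of 27 genes (48.1%), all higher with a higher score, on a background of 4.64% of all genes called in either direction and 3.94% called higher. Values above 0 were found for 25 of 27 genes, against 46.3% of all genes, and the median was 0.15, against -0.0054 over all genes. The score's own 13 marker genes are among the 14994, and none of them is in the pathway list.

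By role, the called genes were 3 of 4 in the mevalonate steps, 1 of 3 in the isoprenoid steps, 2 of 2 in squalene formation, 5 of 8 from lanosterol to cholesterol, 1 of 5 in SREBP2 control and 1 of 5 in traffic and storage. In the mevalonate steps ACAT2 changed by 0.27 ± 0.04 and MVK by 0.21 ± 0.05 per SD of the score beside HMGCS1, and MVD stood at 0.12 ± 0.04 with an adjusted p of 0.0559. IDI1 changed by 0.17 ± 0.04, FDFT1 by 0.22 ± 0.03 and SQLE by 0.15 ± 0.03. After lanosterol, DHCR7 changed by 0.26 ± 0.03, MSMO1 by 0.25 ± 0.03, CYP51A1 by 0.22 ± 0.03, NSDHL by 0.19 ± 0.04 and SC5D by 0.12 ± 0.02. TM7SF2 and EBP, the genes with the smallest p between BDL and SHAM, were not called here, at 0.03 ± 0.05 and 0.08 ± 0.03. Also not called were FDPS at 0.15 ± 0.07 (adjusted p = 0.248 from edgeR), HSD17B7 at 0.15 ± 0.05 (adjusted p = 0.0779) and GGPS1 at 0.03 ± 0.05 (adjusted p = 0.806).

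Of the control genes INSIG1 changed, by 0.19 ± 0.03 per SD of the score. SREBF2 stood at 0.06 ± 0.03 (unadjusted p = 0.0352, adjusted p = 0.261 from edgeR). SCAP stood at -0.02 ± 0.02 (adjusted p = 0.658) and MBTPS1 at -0.0015 ± 0.02 (adjusted p = 0.980). Outside NPC1, the traffic and storage genes were not called: NPC2 stood at 0.15 ± 0.05 (adjusted p = 0.0552), STARD4 at 0.09 ± 0.03, TMEM97 at 0.04 ± 0.03 and SOAT1 at 0.03 ± 0.04. The contrast between INSIG1 and SREBF2 was not tested as a difference between genes.

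The animals at the ends of the score show the size of the relation. BDL replicate 5, with 16035 CPM of the myelin basic protein gene MBP, had 1048 CPM of HMGCS1. BDL replicate 2, with 2600 CPM of MBP, had 344 CPM of HMGCS1. Among SHAM animals, replicate 11 had 14106 CPM of MBP and 883 CPM of HMGCS1, and replicate 1 had 3318 CPM of MBP and 502 CPM of HMGCS1. Leaving out each of the 22 animals in turn gave 13 to 15 called genes on backgrounds of 2.58% to 6.42%, and SC5D was lost without BDL replicate 2. Leaving out BDL replicate 2 and SHAM replicate 1 together gave 13 on a background of 2.53%. The share of reads in no gene, which was highest in BDL replicate 2 and next highest in SHAM replicate 1, had 0 of 27 called on a background of 0.0133%. Yet 25 of the 27 genes lay below 0 on it (median -0.09, with 51.1% of all genes above 0), and 10 of 27 stood at an unadjusted p under 0.05, where 11.7% of all genes were. With this share added to the fit the myelin score called 13, and the part of the share in the result was not tested beyond that. These settings were chosen after seeing the data.

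**Figure D4:**
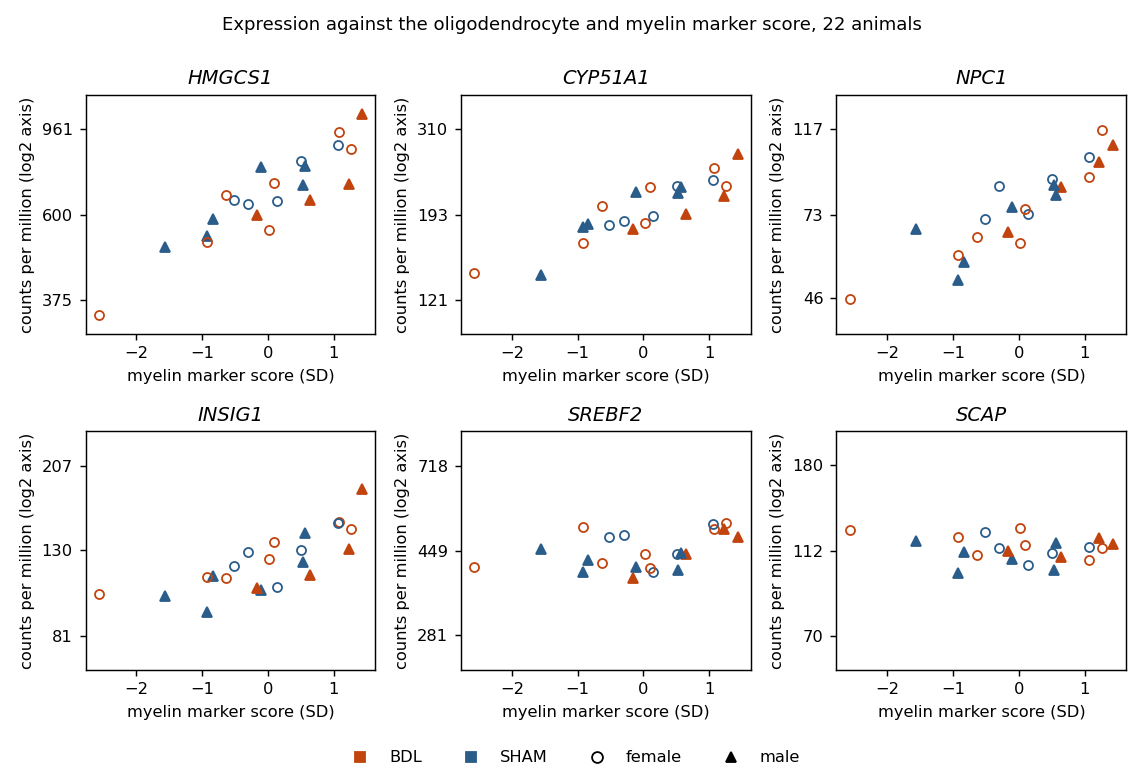
CPM (vertical axis, log2 scale) against the myelin score in SD (horizontal axis) for HMGCS1, CYP51A1, NPC1, INSIG1, SREBF2 and SCAP, 1 point per animal, with BDL and SHAM marked apart. Over the 22 animals HMGCS1, CYP51A1, NPC1 and INSIG1 climb with the score, and the slopes of SREBF2 and SCAP are 0.06 and -0.02 on the log2 scale.

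The relation was also fitted in each treatment group apart, after seeing the data. In BDL animals 11 of 27 genes were called on a background of 3.77%, and in SHAM animals 10 of 27 on a background of 1.47%. HMGCS1 changed by 0.35 ± 0.04 per SD in BDL and 0.29 ± 0.06 in SHAM. NPC1 changed by 0.34 ± 0.04 in BDL and 0.26 ± 0.06 in SHAM. INSIG1 changed by 0.19 ± 0.04 in BDL and stood at 0.19 ± 0.06 in SHAM, where its adjusted p was 0.175. SREBF2 was called in neither group, at 0.09 ± 0.03 in BDL (unadjusted p = 0.0111, adjusted p = 0.136 from edgeR) and -0.0036 ± 0.05 in SHAM. The difference of the slopes called 0 of 27 on a background of 0%, with 4 at an unadjusted p under 0.05, where 9.67% of all genes were. MVD had the smallest p, with a slope of 0.04 ± 0.04 in BDL and 0.32 ± 0.06 in SHAM and a difference of -0.28 ± 0.07 (unadjusted p = 6.39e-04, adjusted p = 0.464 from edgeR). The other 3 were EBP at -0.18 ± 0.07, IDI1 at -0.20 ± 0.09 and HSD17B7 at -0.23 ± 0.10.

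The genes were then set against the level of HMGCS1 in the same animals, which is measured in the same libraries as the genes compared with it. edgeR called 13 of the 26 other genes (50%), all higher with more HMGCS1, on a background of 4.39% called either way and 3.56% called higher. Of these, 12 had also been called with the myelin score, and HSD17B7 was the addition. Ranked by p among 14993 genes, CYP51A1 stood at 6, MSMO1 at 7, ACAT2 at 15, NPC1 at 38, SQLE at 55, DHCR7 at 57 and FDFT1 at 64. SREBF2 stood at 2469 and MBTPS1 at 14535. CYP51A1 changed by 0.23 ± 0.02 and MSMO1 by 0.26 ± 0.02 per SD of the HMGCS1 level.

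Outside the pathway list, the genes most like HMGCS1 by the smallest p of this association over the 22 animals included UGT8 (0.56 ± 0.05), which makes the myelin lipid galactosylceramide and is also among the markers of the myelin score. They also included ELOVL7 (0.50 ± 0.04), a fatty acid elongase, and RHOU (0.27 ± 0.02), a small GTPase. With the myelin score added, the HMGCS1 level called 0 of 26 genes on a background of 0.00667%, with 20 of 26 above 0 (49% of all genes) and 7 at an unadjusted p under 0.05 (5.26% of all genes). MSMO1 had the smallest p of these, at 0.24 ± 0.06 (unadjusted p = 5.03e-04, adjusted p = 0.774 from edgeR). With the HMGCS1 level added, the myelin score called 0 of the 26 other genes on a background of 0.62%, with 3 at an unadjusted p under 0.05 (6.12% of all genes). The score and the HMGCS1 level rose together, and SEs were larger with both in the fit. On the HMGCS1 level ACAT2 stood at 0.28 ± 0.03 alone and 0.24 ± 0.07 with the score. NPC1 stood at 0.30 ± 0.04 and 0.08 ± 0.08, and the median slope was 0.14 and 0.08. The falls to 0 called genes therefore cannot show which covariate a gene goes with.

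**Figure D5:**
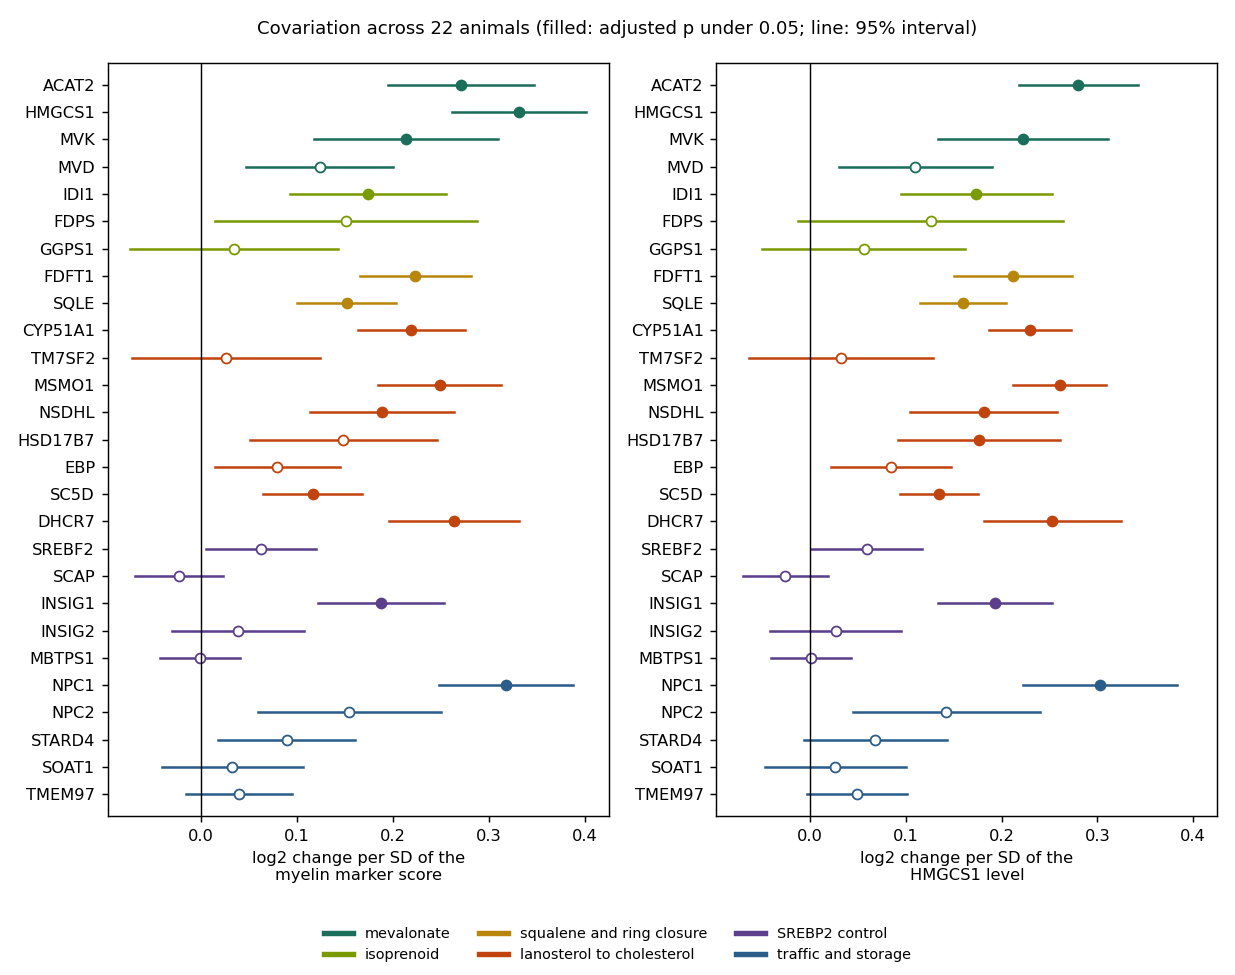
Log2 change per SD of the myelin score and per SD of the HMGCS1 level for the 27 genes, coloured by role, with lines for 95% intervals and filled points for an adjusted p under 0.05. HMGCS1 itself is left out of the HMGCS1 panel. HMGCS1 and NPC1 have the largest slopes on the myelin score, at 0.33 and 0.32, and SCAP and MBTPS1 lie next to 0.

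Scores of 7 other cell types were fitted in place of the myelin score, a choice made after seeing the data. Astrocyte and Bergmann glia markers (8 of 9 measured) called 7 of 27 genes (25.9%) on a background of 6.64% called either way and 3.98% called higher, and all 7 were higher: HMGCS1 at 0.28 ± 0.06, NPC1 at 0.24 ± 0.06, ACAT2 at 0.20 ± 0.06, MSMO1 at 0.19 ± 0.05, CYP51A1 at 0.17 ± 0.04, SQLE at 0.14 ± 0.03 and SC5D at 0.12 ± 0.03. The summed astrocyte markers ran from 3780 to 6994 CPM in BDL and from 4854 to 7630 CPM in SHAM. Granule neuron markers called 0 on a background of 0.794%, with 6 of 27 genes above 0 (47.9% of all genes) and 8 at an unadjusted p under 0.05 (15.9% of all genes). Purkinje cell markers called 0 on a background of 3.63%, microglia markers 0 on 0.814%, endothelium markers 0 on 0.267%, blood markers 0 on 0% and choroid plexus markers 0 on 0.14%. At an unadjusted p under 0.05 stood 2 genes for Purkinje cells (22.2% of all genes), 3 for microglia (8.68%), 1 for endothelium (7.74%), 0 for blood (6.45%) and 0 for choroid plexus (5.08%). The astrocyte markers alone had called genes among these 7 scores, and their part in the results was not tested.

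Other genes of cholesterol uptake, sterol sensing and the isoprenoid side branches were taken from a list of 42, of which 36 were tested. Between BDL and SHAM edgeR called 0 of 36 (0% of all genes), with 13 above 0 (50.3% of all genes), a median log2 fold change of -0.02 and 1 at an unadjusted p under 0.05 (4.96% of all genes). That gene was FNTB, the beta subunit of the enzyme that attaches farnesyl groups to proteins, at 59.0 ± 5.39 CPM in BDL and 53.9 ± 5.79 CPM in SHAM (0.14 ± 0.06 SE, unadjusted p = 0.0410). MARCHF6, a ubiquitin ligase that degrades squalene epoxidase, averaged 164 ± 20.3 CPM in BDL and 179 ± 12.7 CPM in SHAM (-0.11 ± 0.06 SE). PDSS1, which makes the isoprene tail of coenzyme Q, averaged 4.36 ± 0.52 CPM in BDL and 4.91 ± 0.58 CPM in SHAM (-0.17 ± 0.10 SE). With the myelin score 4 of the 36 were called, all higher, where 4.64% of all genes were called. With the HMGCS1 level likewise 4 were called, where 4.39% of all genes were.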

How the data were processed

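Cerebellum RNA of 22 piglets was sequenced. Each animal has 1 deposited table of raw read counts by Ensembl gene. The submitters' processing notes name Trim Galore, HISAT2, HTSeq, DESeq2 and the build Sscrofa11.1, without versions. No source used here gives the strand setting, and reads of overlapping antisense genes cannot be told apart. The 5 summary lines of each table, 29.9% to 34.6% of its counts, were left out.

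Genes were kept by filterByExpr (edgeR 4.0.16, minimum count 10, minimum total 15). Counts were scaled by TMM and tested with edgeR's robust quasi-likelihood test on sex and treatment, with Benjamini-Hochberg adjustment over all tested genes and a threshold of 0.05. Within-sex and interaction values came from a fit of the 4 sex and treatment groups. Slopes on the myelin score within BDL and within SHAM came from a fit of all animals with a treatment by score term. Body weight (unit not given), animal number, the myelin score and the HMGCS1 level (log2 CPM, counts scaled to the TMM library size, prior count 2) were each added to the main fit per SD. SE is the log2 value divided by the square root of F. limma 3.58.1 (voom) and DESeq2 1.42.0 were alternatives. Permutation tests of the score were exact within sexes and used 100000 resamples over all animals. The test was run on simulated counts with a known set of changed genes. These were drawn independently for each gene and animal, so the check did not cover litters or scores built from the same counts. No pair of the 231 library pairs looked like 1 library deposited more than once. Replicate numbers only name animals.

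The 30 genes and the marker and pathway lists were chosen with earlier results of these data known. The lowest, median and highest values are given for 13 landmark genes, the 6 genes with the smallest p between BDL and SHAM and the 2 with the smallest interaction p. Other genes have the mean and SD. Beyond the 30, the rule named the 3 pathway genes with the smallest p and the 5 genes nearest to HMGCS1. Not every gene named by this rule is reported here. Gene positions are RefSeq spans.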

Additional observations from a re-analysis of the deposited data

How the results depend on the processing

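Between BDL and SHAM, 0 of 27 genes were called under every setting run: RLE scaling, no count filter, limma-voom, DESeq2, no sex term, weight, animal number or the myelin score added, and each animal left out. The count at an unadjusted p under 0.05 was 1 with body weight added, 0 with the myelin score added, 0 with BDL replicate 2 and SHAM replicate 1 left out, and 0 to 2 with 1 animal left out. With the myelin score added, 15 genes lay above 0 with a median of 0.0021, and ACAT2 turned to -0.0577, HMGCS1 to -0.11, MVK to -0.00894, CYP51A1 to -0.0259, NPC1 to -0.0714 and STARD4 to -0.0217. HMGCS1 was -0.018 by limma-voom, and INSIG2 was 0.00527 with both low-score animals left out. Over the fits without 1 animal, the log2 fold change ran from -0.0671 to 0.0927 for ACAT2, -0.0817 to 0.0857 for HMGCS1, -0.0274 to 0.106 for MVK, -0.0586 to 0.0134 for SQLE, -0.0173 to 0.0886 for CYP51A1, -0.102 to 0.0184 for HSD17B7, -0.0456 to 0.00968 for INSIG2, -0.0124 to 0.0217 for MBTPS1, -0.014 to 0.112 for NPC1 and -0.0262 to 0.0368 for STARD4. Over the same fits 15 to 23 genes lay above 0, with medians of 0.0089 to 0.0886. The associations called 13 to 15 genes with 1 animal left out and 13 or 14 under the other settings, apart from 2: they called 0 when the myelin score was added to the HMGCS1 level, and 0 when the HMGCS1 level was added to the score. The causes of these changes were not tested. No paired analysis was possible because the replicate numbers pair no animals. FDPS had the fewest counts of the tested genes, between 37 and 92 per library, and whether its reads were fully assigned was not tested. With 11 animals a group the intervals of 8 genes reached past 1.25-fold.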
